A study of Mus musculus with 9 samples.

Results

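The genes described here are 46 nuclear genes of the mitochondrial protein import machinery and of the chaperones and proteases that receive imported proteins. They were chosen by symbol, with earlier results of these data known, and all 46 were found among the 55536 gene IDs of the count table. RNA was sequenced from 9 libraries of primary mouse myoblasts, the dividing precursors of muscle fibres, whose Uqcrfs1 alleles were floxed in every group. The groups were 3 libraries of uqcrfs1 -/- cells (adenovirus for Cre) given 7.5 µM oxybutynin, a muscarinic receptor antagonist, for 5 days, 3 of uqcrfs1 -/- cells given DMSO vehicle, and 3 of uqcrfs1 +/+ floxed cells (adenovirus for green fluorescent protein) given vehicle. They are called knockout oxybutynin, knockout vehicle and floxed vehicle. Cells were seeded 72 h after the virus and treated 24 h later. Floxed cells with oxybutynin were not analysed here, and genotype cannot be told apart from the virus given. The sources used here give no age of the mice. They also do not say whether replicates came from separate cultures, so the p-values reflect library-to-library spread alone, which may be technical.

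Nearly all mitochondrial proteins are made in the cytosol and imported. The translocase of the outer membrane (TOM) is the common entry gate. From it, small TIM chaperones and the sorting and assembly machinery (SAM) serve membrane proteins, a disulphide relay folds small proteins between the membranes, and the TIM23 and TIM22 translocases serve the matrix and the inner membrane. The matrix Hsp70 motor pulls precursors in, peptidases cut off their targeting peptides, chaperonins fold them, and ATP-dependent proteases remove what is damaged or unassembled. Uqcrfs1 encodes the Rieske iron-sulphur protein, a catalytic subunit of respiratory complex III that is itself imported through this route. The groups allow 2 questions, what differs in cells that lack it and what differs further with oxybutynin.

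Library totals ran from 19604971 to 26226949 counts. Uqcrfs1 had 71, 69 and 46 counts in knockout oxybutynin, 51, 51 and 70 in knockout vehicle, and 1539, 1781 and 1881 in floxed vehicle, so every library matched its genotype label. The 7 myoblast markers, Pax7, Myod1, Myf5, Des, Cdh15, Itga7 and Myog, summed to 3569.7 to 3862 CPM in knockout oxybutynin, 2790.4 to 3677 CPM in knockout vehicle and 2881 to 3028 CPM in floxed vehicle. The 5 fibroblast markers summed to 8.41 to 9.61 CPM in knockout oxybutynin, 9.41 to 10.4 CPM in knockout vehicle and 4.89 to 6.33 CPM in floxed vehicle, with Lum at 0 counts in every library, and the 3 leukocyte markers, almost all of it Cd68, to 11.8 to 12.6 CPM in knockout oxybutynin, 10.1 to 12.1 CPM in knockout vehicle and 4.34 to 5.37 CPM in floxed vehicle. The endothelial, adipocyte and Schwann cell markers stayed under 3 CPM in sum in every library. The fibroblast and leukocyte sums were higher in every knockout library than in the floxed ones, and their part in the results was not tested. In these bulk samples fewer cells of a type and less RNA per cell cannot be told apart. Transcripts of the mitochondrial genome took 1.58% to 2.12% of counts in knockout oxybutynin, 1.95% to 2.71% in knockout vehicle and 3.07% to 3.14% in floxed vehicle, and the part of that shift in the results was not tested. Knockout vehicle replicate 2 stood apart from its group, and replicate 3 correlated better with the oxybutynin libraries than with its own group, so results are also given without them where that matters.

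Before the values, promoter stretches are shown for a chaperonin pair that shares its promoter region and for Lonp1 and Trap1, which rose. The sequences are RefSeq's for GRCm38.p6, which had a promoter window (250 bases before to 50 after the start site) for 39 of the 46 members. Hspd1 (chr1:55077835-55088243, minus strand) and Hspe1 (chr1:55088132-55091307, plus strand) lie head to head on chromosome 1. The stretch between their RefSeq starts is chr1:55088051-55088080 on the plus strand, which an exon of an alternative Hspd1 transcript in GENCODE M21 also covers, and it holds 3 overlapping pairs of inverted heat shock units (TTCNNGAA or GAANNTTC) in capitals:
Hspe1 and Hspd1: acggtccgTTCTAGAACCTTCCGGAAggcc
Counted from the Hspe1 start, whose first base is 0, the pairs begin at -89, -84 and -79, and counted from the nearer Hspd1 start they begin at -144, -139 and -134. TTCNNGAA occurred in 8.52% and GAANNTTC in 7.86% of all 32851 RefSeq windows, and in 20.5% and 7.69% of the 39 members. For Lonp1 (chr17:56614297-56626887, minus strand) the stretch chr17:56626903-56626948 on the minus strand, and for Trap1 (chr16:4039971-4077827, minus strand) chr16:4077839-4077868 on the minus strand, are shown with the E-box CACGTG and the cyclic AMP response element TGACGTNA in capitals:
Lonp1: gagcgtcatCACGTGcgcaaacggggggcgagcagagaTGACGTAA
Trap1: gtcgcgcgccaTGACGTCActgagccgccc
Lonp1 and Trap1 were the only members of the 39 with TGACGTNA (5.13%, against 2.93% of all windows), and 6 members held CACGTG (15.4%, against 7.15% of all windows). Of those with CACGTG, Lonp1, Timm10 and Tomm20 were higher in knockout vehicle than in floxed vehicle. Hspd1 and Timm9 were lower, and Timm8a1 was not called. The amino acid response element TGATGNAA (3.97% of all windows) was found in 0 of the 39 members. The 39 members had 42 windows, and a member counted when any of its windows matched, while the shares of all windows are per window. Hspd1 and Hspe1 were both counted for the heat shock pairs that they share. Both strands were searched in each case. A match describes letters only and shows no binding.

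In knockout vehicle against floxed vehicle, 26 of the 46 members were higher (56.5%) and 7 lower (15.2%) at an adjusted p under 0.05, and 13 were not called. Of all 15720 genes tested 29.9% were higher and 33.4% lower. The median log2 fold change was 0.29 over the members and -0.01 over all genes tested. The test was edgeR's quasi-likelihood test with Benjamini-Hochberg adjustment over all genes, errors after log2 fold changes are SE and after counts-per-million (CPM) SD, and n was 3 libraries per group. The values of 25 members lay above those of the floxed group in every library and of 6 below, where 31.2% of all genes were separate upward and 35.5% downward. In knockout oxybutynin against floxed vehicle, which shares the floxed libraries, 31 members were higher (67.4%) and 8 lower (17.4%), with 35.1% and 36.9% of all genes. There 33 members were separate upward and 9 downward, with 38.9% and 40.1% of all genes.

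**Figure D1:**
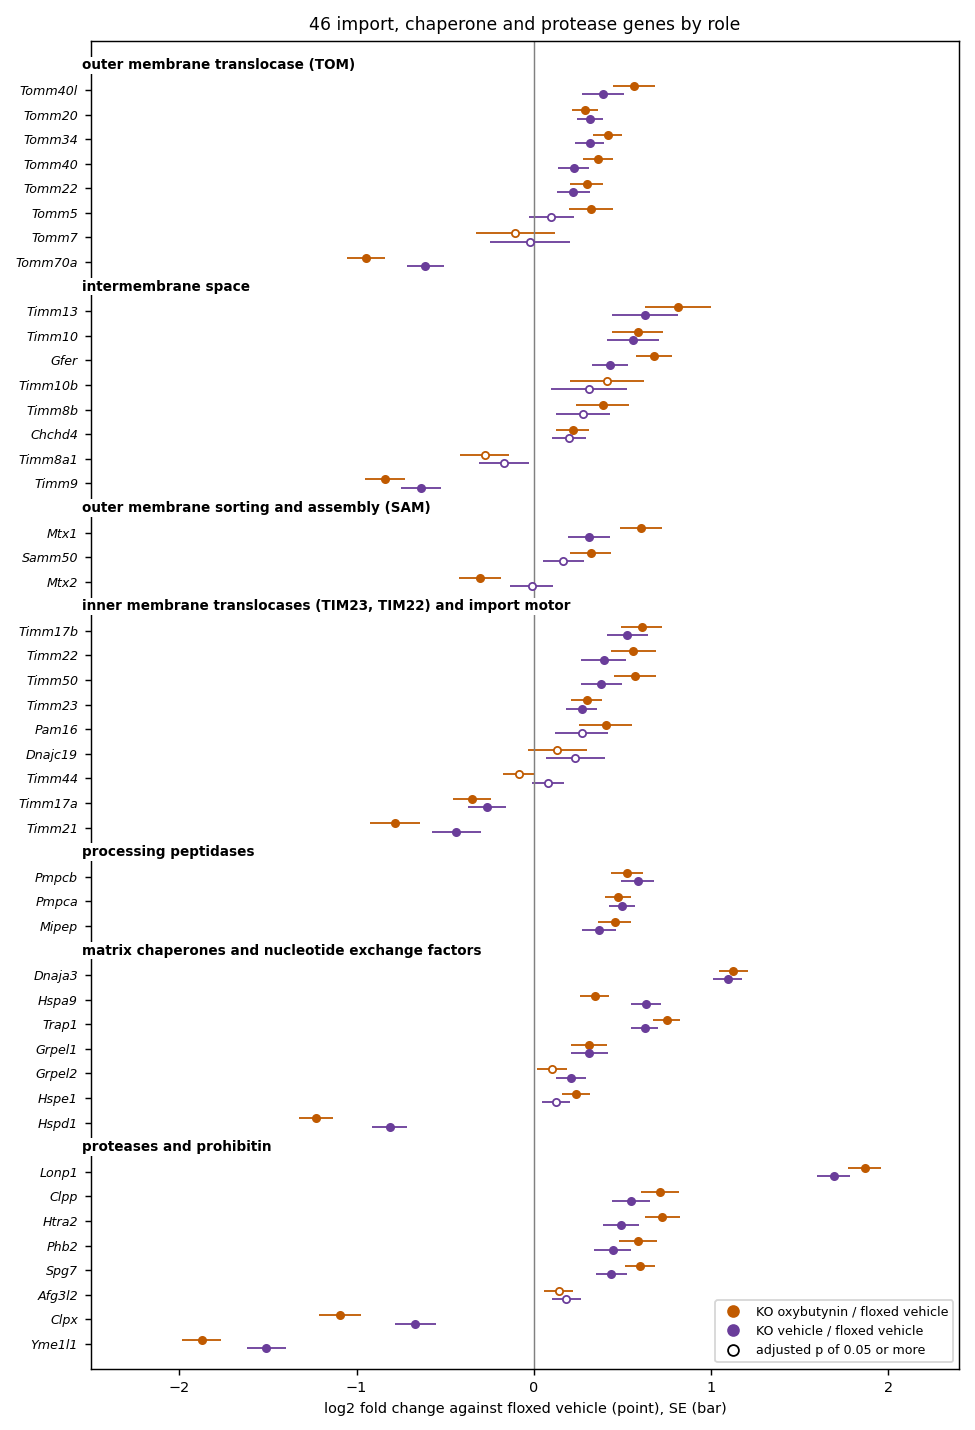
Log2 fold change against floxed vehicle (x axis, point; bar, SE) of the 46 members, grouped by role, in knockout oxybutynin (orange) and knockout vehicle (purple), 3 libraries per group. Open points have an adjusted p of 0.05 or more. Lonp1 and Dnaja3 stand furthest to the right and Yme1l1, Hspd1 and Clpx furthest to the left in both groups.

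Fold changes ran with the base composition of the transcripts, and that bears on which of these calls hold. Ranked by the GC content of their representative transcripts, the 46 members gave a Spearman correlation with log2 fold change of 0.557 in knockout vehicle and 0.762 in knockout oxybutynin against floxed vehicle. It was 0.544 and 0.643 across 12976 protein-coding genes, and all these values come from the same 9 libraries. The 16 members of lowest GC content (38.0% to 47.3%) had a median log2 fold change of -0.02 in knockout vehicle, the 15 in the middle 0.37 and the 15 highest (52.4% to 61.7%) 0.43. After a trend on GC content and length was taken out of every library, 22 members were higher (47.8%) and 7 lower (15.2%) in knockout vehicle, with 28.7% and 29.9% of all genes. In knockout oxybutynin 23 were higher (50.0%) and 9 lower (19.6%), with 30.4% and 30.6% of all genes. The adjustment ignores group, so it also removes any real difference that runs with composition. Of the 26 members higher in knockout vehicle, 15 stayed higher, 9 were not called and 2, Tomm40 and Mtx1, became lower. Of the 7 lower members, Timm9, Hspd1, Clpx and Yme1l1 stayed lower and Tomm70a, Timm17a and Timm21 became higher. Values called GC-adjusted below are from that fit.

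**Figure D2:**
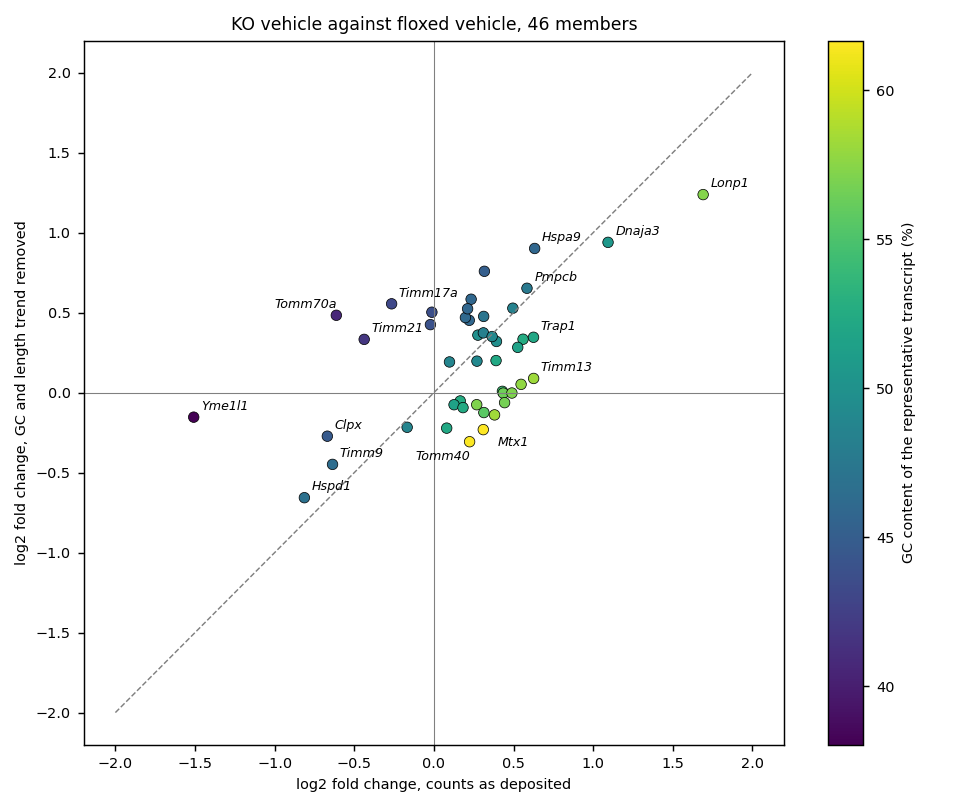
Log2 fold change of the 46 members in knockout vehicle against floxed vehicle from the counts as deposited (x axis) and after the GC and length trend of each library was removed (y axis). Colour gives the GC content in percent, and the dashed line marks equal values. Lonp1, Dnaja3, Hspa9 and Hspd1 stay far from 0 on both axes, Yme1l1 moves most, and Tomm70a, Timm21 and Timm17a cross to the positive side.

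The proteases held both the largest rise and the largest fall. Lonp1, the matrix ATP-dependent protease that degrades oxidised and misfolded proteins, had 299, 277 and 260.4 CPM in knockout oxybutynin, 242, 222 and 277 CPM in knockout vehicle, and 74.6, 73.3 and 81.5 CPM in floxed vehicle. Every knockout library stood above every floxed one, and the treated and untreated knockout libraries overlapped. Lonp1 was 3.23-fold higher in knockout vehicle (log2 fold change 1.69 ± 0.093, adjusted p = 1.28e-10; GC-adjusted 1.24) and 3.65-fold higher in knockout oxybutynin (1.87 ± 0.094, adjusted p = 2.57e-11; GC-adjusted 1.25). Yme1l1, the inner membrane protease that faces the intermembrane space and cleaves Opa1, had 54.4, 47.4 and 59.0 CPM in knockout oxybutynin, 58.6, 82.2 and 66.1 CPM in knockout vehicle, and 197, 198 and 194 CPM in floxed vehicle. The knockout libraries were far below the floxed ones without overlap. Its log2 fold change of -1.51 ± 0.11, adjusted p = 2.75e-09 in knockout vehicle was only -0.15 once GC-adjusted (adjusted p = 0.0475), and that of -1.87 ± 0.11, adjusted p = 1.43e-10 in knockout oxybutynin was -0.30 (adjusted p = 6.57e-04). Its transcript had the lowest GC content of the members, 38.0%.

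The parts of the ClpXP protease went opposite ways. Clpp, the peptidase barrel, had 42.0, 41.1 and 39.4 CPM in knockout oxybutynin, 38.8, 29.7 and 40.9 CPM in knockout vehicle, and 25.6, 24.0 and 25.2 CPM in floxed vehicle, and its log2 fold change was 0.55 ± 0.11, adjusted p = 3.20e-04 in knockout vehicle and 0.71 ± 0.11, adjusted p = 1.61e-05 in knockout oxybutynin. Clpx, the unfoldase that feeds it, had 12.9, 13.5 and 11.8 CPM in knockout oxybutynin, 19.0, 18.4 and 14.1 CPM in knockout vehicle, and 25.5, 27.1 and 29.2 CPM in floxed vehicle, with -0.67 ± 0.12, adjusted p = 8.17e-05 and -1.09 ± 0.12, adjusted p = 2.64e-07. All knockout libraries were above the floxed ones for Clpp and below them for Clpx. After the GC adjustment, Clpx was -0.27 (adjusted p = 0.0259) and -0.52 (adjusted p = 2.87e-04), while Clpp was 0.052 and -0.0084 and no longer called.

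Of the matrix-facing m-AAA protease, Spg7 (paraplegin) was higher in knockout vehicle (0.44 ± 0.087, adjusted p = 3.22e-04), and its partner Afg3l2 missed the threshold (0.18 ± 0.081, adjusted p = 0.0581) and passed it when knockout vehicle replicate 2 (0.20), knockout vehicle replicate 3 (0.19) or knockout oxybutynin replicate 1 (0.19) was left out. Spg7 had 75.5, 70.2 and 69.4 CPM in knockout oxybutynin, 58.9, 62.8 and 70.5 CPM in knockout vehicle, and 45.3, 48.9 and 47.9 CPM in floxed vehicle, and Afg3l2 had 74.1, 87.5 and 83.3 CPM in knockout oxybutynin, 85.9, 82.6 and 83.9 CPM in knockout vehicle, and 73.3, 72.5 and 76.5 CPM in floxed vehicle. For Spg7 all knockout libraries were above the floxed ones. For Afg3l2 the knockout vehicle libraries were all above the floxed ones, and the oxybutynin ones overlapped them. Htra2, a serine protease of the intermembrane space, was higher (0.49 ± 0.10, adjusted p = 3.96e-04), with 62.4, 59.3 and 58.9 CPM in knockout oxybutynin, 45.97, 47.9 and 59.5 CPM in knockout vehicle, and 33.9, 37.4 and 37.9 CPM in floxed vehicle. The knockout libraries were all above the floxed ones, and knockout vehicle replicate 3 lay within the oxybutynin range. Phb2 had 238, 205 and 192 CPM in knockout oxybutynin, 199.7, 158 and 217 CPM in knockout vehicle, and 136, 144 and 142 CPM in floxed vehicle. For Phb2 all knockout libraries were above the floxed ones. Phb2, a prohibitin that scaffolds the m-AAA protease in the inner membrane, was higher too (0.44 ± 0.11, adjusted p = 0.0015). Of these 3 rises none was called once GC-adjusted, at -0.0031 for Spg7, -0.0024 for Htra2 and -0.063 for Phb2. Of the 8 proteases and prohibitin, 5 were thus higher and 2 lower in knockout vehicle, with 29.9% and 33.4% of all genes. After the adjustment 1 (Lonp1) was higher and 2 (Clpx and Yme1l1) lower, with 28.7% and 29.9% of all genes.

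Among the matrix chaperones, the Hsp70 system rose while the large chaperonin subunit fell. Dnaja3, the J-domain co-chaperone of matrix Hsp70, had 105, 109 and 100.4 CPM in knockout oxybutynin, 105, 95.9 and 106 CPM in knockout vehicle, and 50.2, 45.4 and 48.4 CPM in floxed vehicle. All 6 knockout libraries were above the floxed ones, and the log2 fold change was 1.09 ± 0.081, adjusted p = 3.67e-09 in knockout vehicle (GC-adjusted 0.94) and 1.13 ± 0.081, adjusted p = 1.56e-09 in knockout oxybutynin (GC-adjusted 0.96). Hspa9 (mortalin), the matrix Hsp70 of the import motor, had 608, 581 and 609.9 CPM in knockout oxybutynin, 745, 804 and 653 CPM in knockout vehicle, and 469.7, 469 and 481 CPM in floxed vehicle. The 3 groups did not overlap, with knockout vehicle highest and knockout oxybutynin between. Its log2 fold change was 0.63 ± 0.083, adjusted p = 3.55e-06 in knockout vehicle and 0.34 ± 0.082, adjusted p = 0.00129 in knockout oxybutynin, and GC-adjusted 0.90 and 0.76. Hspa9 alone supplied 18.2% to 19.3% of all member counts in knockout oxybutynin, 19.7% to 24.7% in knockout vehicle and 16.8% to 16.9% in floxed vehicle.

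Trap1, the mitochondrial Hsp90, had 135, 130.4 and 134 CPM in knockout oxybutynin, 120.3, 115 and 132 CPM in knockout vehicle, and 77.9, 79.5 and 80.1 CPM in floxed vehicle. All knockout libraries were above the floxed ones, at 0.63 ± 0.077, adjusted p = 1.68e-06 in knockout vehicle (GC-adjusted 0.35) and 0.75 ± 0.077, adjusted p = 1.29e-07 in knockout oxybutynin (GC-adjusted 0.40). Grpel1 had 48.4, 47.3 and 42.2 CPM in knockout oxybutynin, 51.3, 38.6 and 48.3 CPM in knockout vehicle, and 38.0, 37.0 and 36.3 CPM in floxed vehicle. For Grpel1 all knockout libraries were above the floxed ones. Grpel2 had 46.1, 46.7 and 45.2 CPM in knockout oxybutynin, 47.7, 54.2 and 47.0 CPM in knockout vehicle, and 42.4, 43.9 and 42.3 CPM in floxed vehicle. For Grpel2 all knockout libraries were above the floxed ones. Both nucleotide exchange factors of Hspa9 were modestly higher in knockout vehicle, Grpel1 at 0.31 ± 0.10, adjusted p = 0.0143 and Grpel2 at 0.21 ± 0.085, adjusted p = 0.0374. Leaving out single libraries gave 0.27 to 0.43 for Grpel1, whose call was lost in 1 of 9 such fits, and 0.15 to 0.28 for Grpel2, lost in 4 of 9. Once GC-adjusted they were 0.48 and 0.52, both called. In knockout oxybutynin Grpel2 was not called (0.10 ± 0.085, adjusted p = 0.291), though it was once GC-adjusted (0.59).

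Hspd1 (Hsp60) builds the chaperonin barrel and Hspe1 (Hsp10) its lid, and they share the promoter region shown above. Hspd1 had 111, 100.2 and 105 CPM in knockout oxybutynin, 164, 139 and 119 CPM in knockout vehicle, and 251, 239.7 and 249 CPM in floxed vehicle. The 3 groups did not overlap, with knockout oxybutynin lowest and floxed vehicle highest. Its log2 fold change was -0.81 ± 0.097, adjusted p = 1.26e-06 in knockout vehicle and -1.23 ± 0.098, adjusted p = 5.50e-09 in knockout oxybutynin, and -0.66 and -0.96 once GC-adjusted, all called. Hspe1 had 90.6, 82.7 and 89.1 CPM in knockout oxybutynin, 83.4, 76.1 and 83.5 CPM in knockout vehicle, and 75.3, 74.2 and 73.1 CPM in floxed vehicle. Both knockout groups lay above the floxed libraries by a small margin, at 0.13 ± 0.078, adjusted p = 0.167 in knockout vehicle and 0.24 ± 0.078, adjusted p = 0.0115 in knockout oxybutynin, of which the value in knockout oxybutynin was called. Once GC-adjusted Hspe1 was -0.076 and -0.080, neither called. The call in knockout oxybutynin was also lost without floxed vehicle replicate 3 (0.23), and Hspe1 was called in knockout vehicle without knockout vehicle replicate 2 (0.18).

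**Figure D3:**
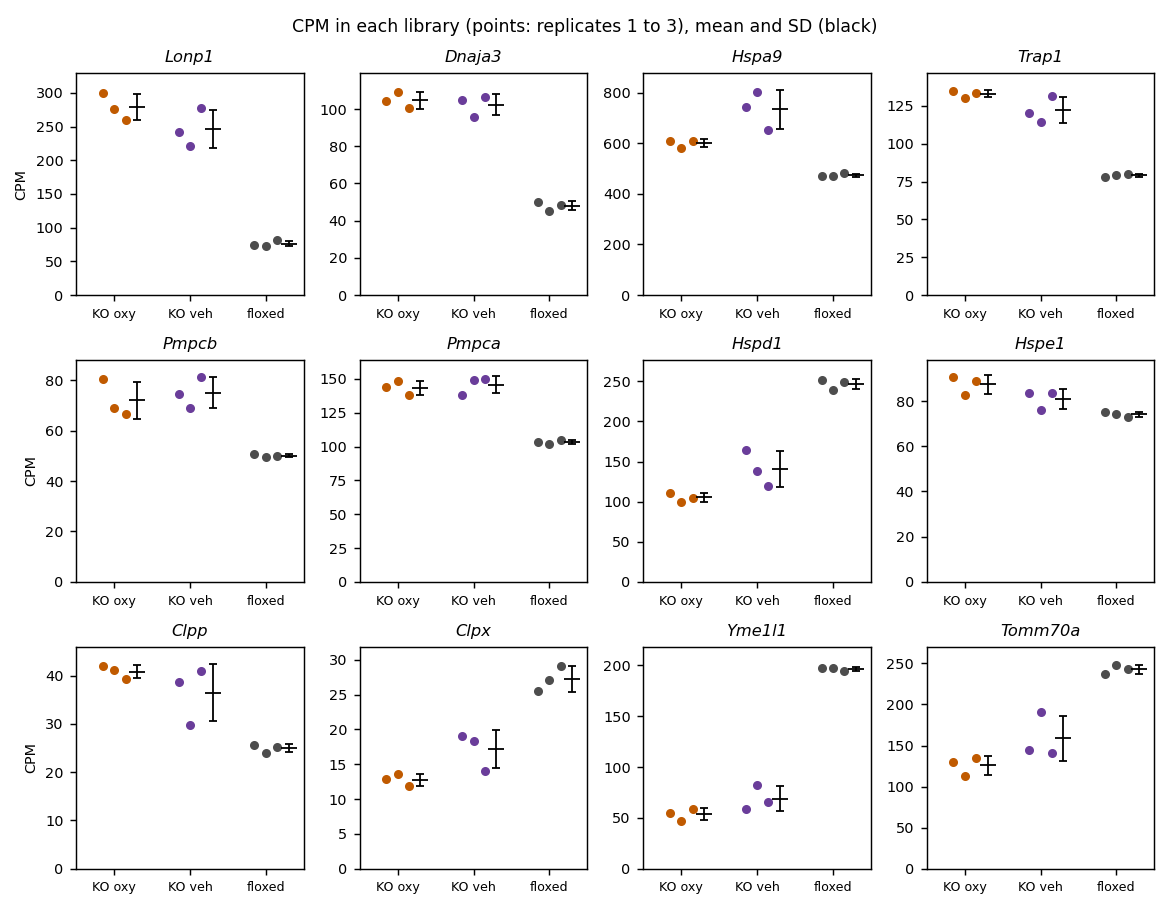
CPM (y axis, linear from 0) of 12 members in each library, with groups from left to right knockout oxybutynin, knockout vehicle and floxed vehicle. Points are libraries and the black bar gives mean and SD of 3. Lonp1 reaches 260.4 to 299 CPM in knockout oxybutynin and 73.3 to 81.5 in floxed vehicle, Hspd1 100.2 to 111 CPM in knockout oxybutynin and 239.7 to 251 in floxed vehicle, and Hspe1 differs little between groups.

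All 3 processing peptidases were higher in both knockout groups, before and after the adjustment. Of all genes 29.9% were higher in knockout vehicle and 35.1% in knockout oxybutynin, and 28.7% and 30.4% once GC-adjusted. Pmpca and Pmpcb form the matrix processing peptidase, which cuts off targeting sequences. Pmpca had 144, 148 and 138 CPM in knockout oxybutynin, 138, 149 and 149.8 CPM in knockout vehicle, and 103, 102 and 105 CPM in floxed vehicle, and Pmpcb had 80.4, 69.1 and 66.6 CPM in knockout oxybutynin, 74.6, 69.1 and 81.4 CPM in knockout vehicle, and 50.6, 49.6 and 50.0 CPM in floxed vehicle. In both genes every knockout library was above every floxed one, and the treated and untreated knockout libraries overlapped. Their log2 fold changes in knockout vehicle were 0.50 ± 0.074, adjusted p = 1.55e-05 and 0.58 ± 0.091, adjusted p = 2.67e-05, and 0.53 and 0.65 once GC-adjusted. Mipep had 23.7, 24.2 and 22.2 CPM in knockout oxybutynin, 22.8, 21.6 and 21.6 CPM in knockout vehicle, and 17.4, 15.8 and 18.0 CPM in floxed vehicle. For Mipep all knockout libraries were above the floxed ones. Mipep, the intermediate peptidase that trims some precursors again, was higher by 0.37 ± 0.096, adjusted p = 0.00304 (GC-adjusted 0.35). In knockout oxybutynin the 3 values were 0.47, 0.53 and 0.45.

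In the outer membrane translocase and its cytosolic partner, 5 of 8 genes were higher in knockout vehicle and 1 lower, with 29.9% and 33.4% of all genes. Once GC-adjusted, Tomm20, Tomm22 and Tomm70a were higher and Tomm40 lower, with 28.7% and 29.9% of all genes. Tomm70a, the receptor for carrier precursors that bind cytosolic chaperones, had 130.4, 113 and 135 CPM in knockout oxybutynin, 144, 191 and 141 CPM in knockout vehicle, and 238, 248 and 243 CPM in floxed vehicle. The groups did not overlap, knockout oxybutynin being lowest, at -0.61 ± 0.10, adjusted p = 6.77e-05 in knockout vehicle and -0.95 ± 0.11, adjusted p = 3.64e-07 in knockout oxybutynin. The direction turned once GC-adjusted, to 0.48 (adjusted p = 1.22e-06) and 0.41 (adjusted p = 6.18e-06), its transcript having a GC content of 40.7%. Tomm20, the receptor for cleavable presequences, was 0.32 ± 0.075, adjusted p = 0.00132 and GC-adjusted 0.76. Tomm20 had 134, 136 and 128 CPM in knockout oxybutynin, 140.4, 138 and 128 CPM in knockout vehicle, and 105, 109 and 112 CPM in floxed vehicle. For Tomm20 all knockout libraries were above the floxed ones. Tomm22 had 64.2, 57.3 and 64.9 CPM in knockout oxybutynin, 63.3, 51.6 and 62.2 CPM in knockout vehicle, and 48.8, 53.2 and 49.8 CPM in floxed vehicle. For Tomm22 the oxybutynin libraries were all above the floxed ones, and those of knockout vehicle overlapped them. Tomm22, the central receptor, was 0.22 ± 0.094, adjusted p = 0.0477 (GC-adjusted 0.45), and its call was lost in 7 of 9 fits that left out 1 library (0.19 to 0.32).

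Tomm40 had 109, 98.7 and 94.3 CPM in knockout oxybutynin, 95.8, 81.5 and 97.0 CPM in knockout vehicle, and 78.4, 77.6 and 78.8 CPM in floxed vehicle. For Tomm40 all knockout libraries were above the floxed ones. Tomm40l had 26.7, 23.3 and 20.4 CPM in knockout oxybutynin, 20.9, 18.3 and 23.1 CPM in knockout vehicle, and 15.5, 14.9 and 17.2 CPM in floxed vehicle. For Tomm40l all knockout libraries were above the floxed ones. Tomm34 had 70.1, 66.5 and 73.1 CPM in knockout oxybutynin, 65.2, 61.2 and 68.7 CPM in knockout vehicle, and 54.1, 49.9 and 52.9 CPM in floxed vehicle. For Tomm34 all knockout libraries were above the floxed ones. Tomm5 had 36.2, 35.1 and 30.5 CPM in knockout oxybutynin, 29.9, 22.9 and 34.3 CPM in knockout vehicle, and 25.4, 29.2 and 26.7 CPM in floxed vehicle. For Tomm5 the oxybutynin libraries were all above the floxed ones, and those of knockout vehicle overlapped them. Tomm40, the channel, was 0.22 ± 0.087, adjusted p = 0.0316, lost its call in 5 of 9 such fits (0.19 to 0.31), and turned to -0.31 once GC-adjusted. Its paralogue Tomm40l (0.39 ± 0.12, adjusted p = 0.00913) and the cytosolic co-chaperone Tomm34 (0.31 ± 0.082, adjusted p = 0.00304) were higher, and GC-adjusted they were 0.20 and -0.12, neither called. The small subunits Tomm5 (0.098 ± 0.13, adjusted p = 0.513) and Tomm7 (-0.022 ± 0.22, adjusted p = 0.937) were not called in knockout vehicle, though Tomm5 was without knockout vehicle replicate 2 (0.25). Tomm5 was called in knockout oxybutynin (0.32 ± 0.13, adjusted p = 0.0283), with the call lost in 4 of 9 such fits (0.28 to 0.40), and Tomm7 was not called there either (-0.10 ± 0.22, adjusted p = 0.687). In knockout oxybutynin 6 of the 8 were higher and 1 lower, with 35.1% and 36.9% of all genes.

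Of the 8 genes of the intermembrane space, 3 were higher and 1 lower in knockout vehicle, with 29.9% and 33.4% of all genes. Once GC-adjusted the counts were again 3 and 1, with 28.7% and 29.9% of all genes. The small TIM chaperones carry hydrophobic precursors in hexamers made of Timm9 with Timm10, or Timm8 proteins with Timm13. Timm9 fell and Timm10 rose. Timm9 had 8.73, 10.2 and 9.75 CPM in knockout oxybutynin, 10.2, 12.3 and 10.49 CPM in knockout vehicle, and 16.3, 17.6 and 17.2 CPM in floxed vehicle, at -0.64 ± 0.11, adjusted p = 9.47e-05 in knockout vehicle (GC-adjusted -0.45) and -0.84 ± 0.11, adjusted p = 3.83e-06 in knockout oxybutynin (GC-adjusted -0.57), called in all 4 fits. Timm10 had 14.7, 12.6 and 12.4 CPM in knockout oxybutynin, 11.9, 10.9 and 16.2 CPM in knockout vehicle, and 8.22, 8.59 and 9.65 CPM in floxed vehicle, at 0.56 ± 0.14, adjusted p = 0.00275 in knockout vehicle and 0.59 ± 0.14, adjusted p = 0.00154 in knockout oxybutynin. Knockout libraries were all below the floxed ones for Timm9 and all above for Timm10. After the GC adjustment, Timm10 was 0.33 (called) and 0.22 (not called).

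Timm13 had 18.4, 14.8 and 14.9 CPM in knockout oxybutynin, 16.4, 8.87 and 17 CPM in knockout vehicle, and 9.81, 8.59 and 9.03 CPM in floxed vehicle. Knockout vehicle replicate 2 lay within the floxed range, and the call (0.63 ± 0.19, adjusted p = 0.00744) was lost without knockout vehicle replicate 3 (0.47) and once GC-adjusted (0.089). Timm8a1 (-0.17 ± 0.14, adjusted p = 0.308), Timm8b (0.28 ± 0.15, adjusted p = 0.12) and Timm10b (0.31 ± 0.21, adjusted p = 0.211) were not called with all libraries. Without knockout vehicle replicate 1, Timm8a1 (-0.31) and Timm10b (0.51) were called, and without knockout vehicle replicate 2 Timm8b was (0.46). Timm8a1 had 8.37, 8.03 and 7.50 CPM in knockout oxybutynin, 10.7, 7.53 and 7.65 CPM in knockout vehicle, and 10.1, 9.75 and 9.16 CPM in floxed vehicle. For Timm8a1 the oxybutynin libraries were all below the floxed ones, and those of knockout vehicle overlapped them. Timm8b had 18.5, 17.7 and 15.6 CPM in knockout oxybutynin, 20.4, 11.8 and 16.0 CPM in knockout vehicle, and 13.3, 13.7 and 12.7 CPM in floxed vehicle. For Timm8b the oxybutynin libraries were all above the floxed ones, and those of knockout vehicle overlapped them. In the disulphide relay, the oxidase Gfer was higher (0.43 ± 0.10, adjusted p = 0.00136; GC-adjusted 0.0080, not called), and its partner Chchd4 (Mia40), which oxidises incoming proteins, missed the threshold (0.20 ± 0.095, adjusted p = 0.0769) but was called once GC-adjusted (0.47). Gfer had 43.7, 39.1 and 41.9 CPM in knockout oxybutynin, 36.3, 30.6 and 38.1 CPM in knockout vehicle, and 26.4, 24.0 and 27.5 CPM in floxed vehicle. For Gfer all knockout libraries were above the floxed ones. Chchd4 had 20.3, 19.1 and 19.1 CPM in knockout oxybutynin, 19.6, 19.0 and 19.1 CPM in knockout vehicle, and 16.5, 16.1 and 17.7 CPM in floxed vehicle. For Chchd4 all knockout libraries were above the floxed ones. In knockout oxybutynin Gfer was 0.68 ± 0.10, adjusted p = 1.18e-05. Chchd4 was 0.22 ± 0.094, adjusted p = 0.0461 there, a call lost in 6 of 9 fits that left out 1 library, as was that of Timm8b (0.39 ± 0.15, adjusted p = 0.0281) in 4 of 9.

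The outer membrane sorting and assembly machinery inserts barrel proteins. Samm50 had 64.5, 63.8 and 58.9 CPM in knockout oxybutynin, 63.4, 43.3 and 61.5 CPM in knockout vehicle, and 48.3, 48.4 and 53.2 CPM in floxed vehicle. For Samm50 the oxybutynin libraries were all above the floxed ones, and those of knockout vehicle overlapped them. Mtx1 had 35.7, 29.9 and 30.7 CPM in knockout oxybutynin, 29.7, 21.3 and 27.5 CPM in knockout vehicle, and 20.1, 22.2 and 20.9 CPM in floxed vehicle. For Mtx1 the oxybutynin libraries were all above the floxed ones, and those of knockout vehicle overlapped them. Mtx2 had 22.9, 24.2 and 25.8 CPM in knockout oxybutynin, 30.5, 35.2 and 23.4 CPM in knockout vehicle, and 29.9, 29.9 and 30.1 CPM in floxed vehicle. For Mtx2 the oxybutynin libraries were all below the floxed ones, and those of knockout vehicle overlapped them. In knockout vehicle its core Samm50 (0.17 ± 0.12, adjusted p = 0.227) and metaxin Mtx2 (-0.013 ± 0.12, adjusted p = 0.932) were not called, though Samm50 was without knockout vehicle replicate 2 (0.33). Mtx1 was called (0.31 ± 0.12, adjusted p = 0.0308), and in 5 of 9 fits that left out 1 library (0.25 to 0.45). In knockout oxybutynin Samm50 (0.32 ± 0.12, adjusted p = 0.0204) and Mtx1 (0.61 ± 0.12, adjusted p = 1.95e-04) were higher and Mtx2 was lower (-0.30 ± 0.12, adjusted p = 0.0321). Both metaxins turned round once GC-adjusted, Mtx1 to -0.23 and Mtx2 to 0.50 in knockout vehicle and to -0.18 and 0.41 in knockout oxybutynin. The calls of Samm50 and Mtx2 in knockout oxybutynin were lost in 4 and 6 of 9 such fits (0.30 to 0.37 and -0.34 to -0.26).

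In the inner membrane, 4 of 9 genes were higher and 2 lower in knockout vehicle, with 29.9% and 33.4% of all genes. Once GC-adjusted, 6 were higher and 1, Timm44, lower, with 28.7% and 29.9% of all genes. Timm23 had 56.8, 54.5 and 54.2 CPM in knockout oxybutynin, 60.2, 49.6 and 52.7 CPM in knockout vehicle, and 45.2, 44.1 and 45.4 CPM in floxed vehicle. For Timm23 all knockout libraries were above the floxed ones. Timm50 had 44.7, 38.7 and 35.6 CPM in knockout oxybutynin, 36.1, 29.1 and 39.4 CPM in knockout vehicle, and 26.2, 25.3 and 28.7 CPM in floxed vehicle. For Timm50 all knockout libraries were above the floxed ones. Timm22 had 23.8, 24.4 and 21.7 CPM in knockout oxybutynin, 23.1, 16.1 and 23.0 CPM in knockout vehicle, and 15.9, 14.7 and 16.7 CPM in floxed vehicle. For Timm22 the oxybutynin libraries were all above the floxed ones, and those of knockout vehicle overlapped them. Timm23, the presequence channel, was 0.27 ± 0.087, adjusted p = 0.0123 (GC-adjusted 0.20; call lost without floxed vehicle replicate 2, at 0.26), and its receptor Timm50 was 0.38 ± 0.12, adjusted p = 0.00907 (GC-adjusted -0.14, not called). Timm22, the carrier translocase, was 0.39 ± 0.13, adjusted p = 0.0127 (GC-adjusted 0.32; call lost without floxed vehicle replicate 2, at 0.35, and without knockout vehicle replicate 3, at 0.32). Timm21, which in yeast links TIM23 to the TOM complex and the respiratory chain, had 7.47, 8.498 and 8.90 CPM in knockout oxybutynin, 10.48, 12.7 and 8.38 CPM in knockout vehicle, and 13.9, 14.0 and 14.9 CPM in floxed vehicle. Its knockout libraries were all below the floxed ones, at -0.44 ± 0.14, adjusted p = 0.0101 in knockout vehicle (call lost without knockout vehicle replicate 3, at -0.29) and -0.78 ± 0.14, adjusted p = 7.81e-05 in knockout oxybutynin, but GC-adjusted at 0.33 (called) and 0.19 (not called).

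Timm17a and Timm17b are alternative partners of the Timm23 channel. Timm17a had 41.4, 38.7 and 38.1 CPM in knockout oxybutynin, 50.3, 36.9 and 38.1 CPM in knockout vehicle, and 50.2, 49.6 and 50.8 CPM in floxed vehicle, and Timm17b had 29.4, 27.9 and 24.9 CPM in knockout oxybutynin, 27.7, 21.2 and 28.8 CPM in knockout vehicle, and 18.0, 17.6 and 18.3 CPM in floxed vehicle. Timm17a fell (-0.27 ± 0.11, adjusted p = 0.0369), with an overlap between groups and a call lost in 8 of 9 fits that left out 1 library (-0.38 to -0.18), and Timm17b rose without overlap (0.53 ± 0.12, adjusted p = 7.48e-04). After the GC adjustment, both were higher, at 0.56 and 0.28. Timm44 had 30.9, 34.3 and 35.4 CPM in knockout oxybutynin, 38.5, 37.8 and 36.3 CPM in knockout vehicle, and 35.5, 34.1 and 37.0 CPM in floxed vehicle. For Timm44 both knockout groups overlapped the floxed libraries. Pam16 had 10.7, 9.44 and 9.84 CPM in knockout oxybutynin, 9.41, 6.94 and 10.9 CPM in knockout vehicle, and 7.46, 7.94 and 7.20 CPM in floxed vehicle. For Pam16 the oxybutynin libraries were all above the floxed ones, and those of knockout vehicle overlapped them. The motor genes Timm44 (0.080 ± 0.088, adjusted p = 0.441), which anchors Hspa9 to the channel, Dnajc19 (0.23 ± 0.17, adjusted p = 0.23), its J-domain stimulator, and Pam16 (0.27 ± 0.15, adjusted p = 0.125), which in yeast restrains that stimulator, were not called. Without knockout vehicle replicate 2 Pam16 was called (0.44), and without knockout vehicle replicate 3 Dnajc19 was (0.40). After the GC adjustment, Timm44 was lower (-0.22) and Dnajc19 higher (0.58). In knockout oxybutynin Pam16 was called (0.40 ± 0.15, adjusted p = 0.0211), in 6 of 9 fits that left out 1 library, and not once GC-adjusted (-0.19).

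Because scaling cancels in a ratio of 2 genes within a library, 10 pairs of partner genes were compared by an exact two-sided permutation test of the log2 ratio. With 3 libraries against 3 the smallest p is 0.1, and adjusted over the 30 tests of the family no ratio passed (smallest adjusted p = 0.158). Hspe1 over Hspd1 in CPM was 0.819 to 0.847 in knockout oxybutynin, 0.509 to 0.701 in knockout vehicle and 0.293 to 0.310 in floxed vehicle. The 3 groups did not overlap, and the log2 ratio differed from that of floxed vehicle by 1.47 in knockout oxybutynin and 0.95 in knockout vehicle (exact p = 0.1 each). Once GC-adjusted these differences were 0.88 and 0.58. Clpp over Clpx was 3.04 to 3.33 in knockout oxybutynin, 1.61 to 2.91 in knockout vehicle and 0.864 to 1.00 in floxed vehicle, again without overlap, and differed on the log2 scale by 1.81 and 1.21 (GC-adjusted 0.51 and 0.32).

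Timm17a over Timm17b was 1.39 to 1.53 in knockout oxybutynin, 1.32 to 1.82 in knockout vehicle and 2.78 to 2.81 in floxed vehicle, and its difference from floxed vehicle turned round once GC-adjusted (-0.95 and -0.79, GC-adjusted 0.41 and 0.27). Timm8a1 over Timm8b was 0.452 to 0.480 in knockout oxybutynin, 0.480 to 0.636 in knockout vehicle and 0.712 to 0.759 in floxed vehicle, with differences in log2 ratio that kept their sign once GC-adjusted (-0.66 and -0.43, GC-adjusted -0.69 and -0.58). Pmpca over Pmpcb, the subunits of 1 enzyme, was 1.79 to 2.14 in knockout oxybutynin, 1.84 to 2.16 in knockout vehicle and 2.05 to 2.10 in floxed vehicle, and the groups overlapped. Grpel1 over Grpel2 overlapped between knockout vehicle (0.712 to 1.08) and floxed vehicle (0.843 to 0.895). In knockout oxybutynin this ratio was 0.934 to 1.05, above floxed vehicle without overlap, with a log2 difference of 0.21 (GC-adjusted 2.8e-04). The log2 ratio of Tomm40 over Tomm40l in knockout vehicle minus that in floxed vehicle was -0.17 (GC-adjusted -0.51), and that of Afg3l2 over Spg7 was -0.25 (GC-adjusted -0.090). Gfer over Chchd4 gave 0.23, which turned to -0.46 once GC-adjusted. Mtx1 over Mtx2 overlapped, at 0.605 to 1.17 in knockout vehicle and 0.674 to 0.741 in floxed vehicle (exact p = 0.4), and its log2 difference of 0.33 turned to -0.73. In knockout oxybutynin the Mtx1 over Mtx2 ratio was 1.19 to 1.56, above floxed vehicle without overlap. The log2 difference there was 0.91 and turned to -0.59 once GC-adjusted.

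**Figure D4:**
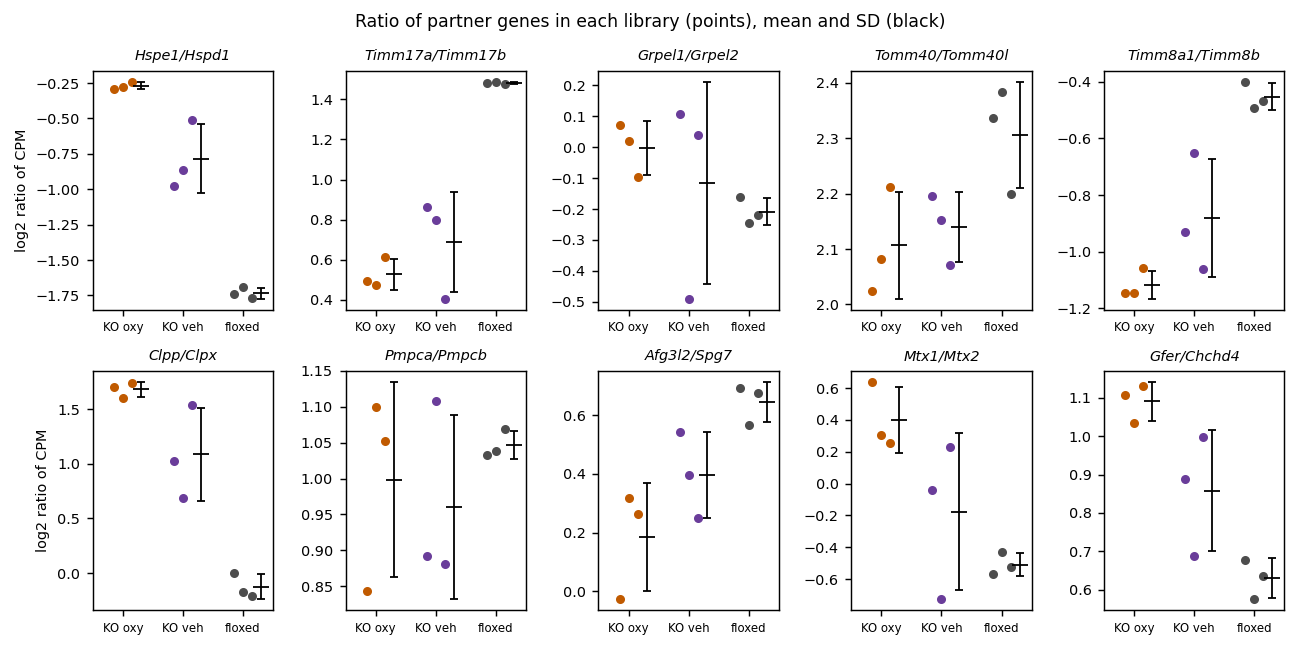
Log2 ratio of CPM (y axis, own scale in each panel) of 10 pairs of partner genes in each library, with groups from left to right knockout oxybutynin, knockout vehicle and floxed vehicle. Points are libraries, the black bar gives mean and SD of 3. Hspe1/Hspd1 and Clpp/Clpx step down from left to right without overlap between groups, and Pmpca/Pmpcb overlaps in all 3.

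Within knockout cells, no member passed the test for oxybutynin. The count was 0 of 46 in knockout oxybutynin against knockout vehicle with edgeR, where 1 gene of 15720 was called in each direction (0.00636% and 0.00636%). At an unadjusted p under 0.05 there were 10 members, 3 higher and 7 lower (21.7%, against 26.0% of all genes). The smallest adjusted p-values were those of Hspd1 (-0.42 ± 0.098, adjusted p = 0.0644), Clpx (-0.42 ± 0.12, adjusted p = 0.0767) and Hspa9 (-0.29 ± 0.082, adjusted p = 0.0767), then Yme1l1 (-0.37 ± 0.11, adjusted p = 0.0844) and Tomm70a (-0.33 ± 0.10, adjusted p = 0.0921). For Hspd1, Clpx and Hspa9 every oxybutynin library was below every vehicle library. Values were separate downward in 7 members, Tomm70a, Timm9, Timm44, Hspd1, Hspa9, Grpel2 and Clpx, and upward in 2, Gfer and Mtx1, while 11.6% of all genes were separate downward and 10.5% upward. DESeq2 called 5 members lower and 0 higher of the 45 it gave an adjusted p (of all such genes, 8.94% and 1.73%), and limma-voom called 0.

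With edgeR this result changed most without knockout vehicle replicate 3, the vehicle library that correlated best with the oxybutynin libraries. Leaving out such a library can widen the contrast by itself. Without it 6 members were higher (13.0%) and 7 lower (15.2%) in knockout oxybutynin, with 11.6% and 14.4% of the 16097 genes then tested, so the members' shares were near those of all genes. The 6 were Tomm5, Gfer, Trap1, Lonp1, Spg7 and Htra2, at 0.18 to 0.36, and the 7 were Tomm70a, Mtx2, Timm21, Hspd1, Hspa9, Clpx and Yme1l1, at -0.55 to -0.37. Without knockout vehicle replicate 2 only Hspd1 was called (-0.43), where 0.316% of all genes were lower and 0.0745% higher. With GC and length taken out and all libraries kept, 0 members and 0 of all genes (0%) were called by edgeR (6 of 46 members at an unadjusted p under 0.05). Without knockout vehicle replicate 3 that fit called only Hspd1 among the members, at -0.37 (adjusted p = 0.0352), where 1.44% of all genes were lower and 0.758% higher. The Spearman correlation with GC content was 0.813 over the 46 members and 0.711 over protein-coding genes in this comparison. Of the 15 members of highest GC content 14 had a positive log2 fold change, and of the 16 lowest 2 had.

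**Figure D5:**
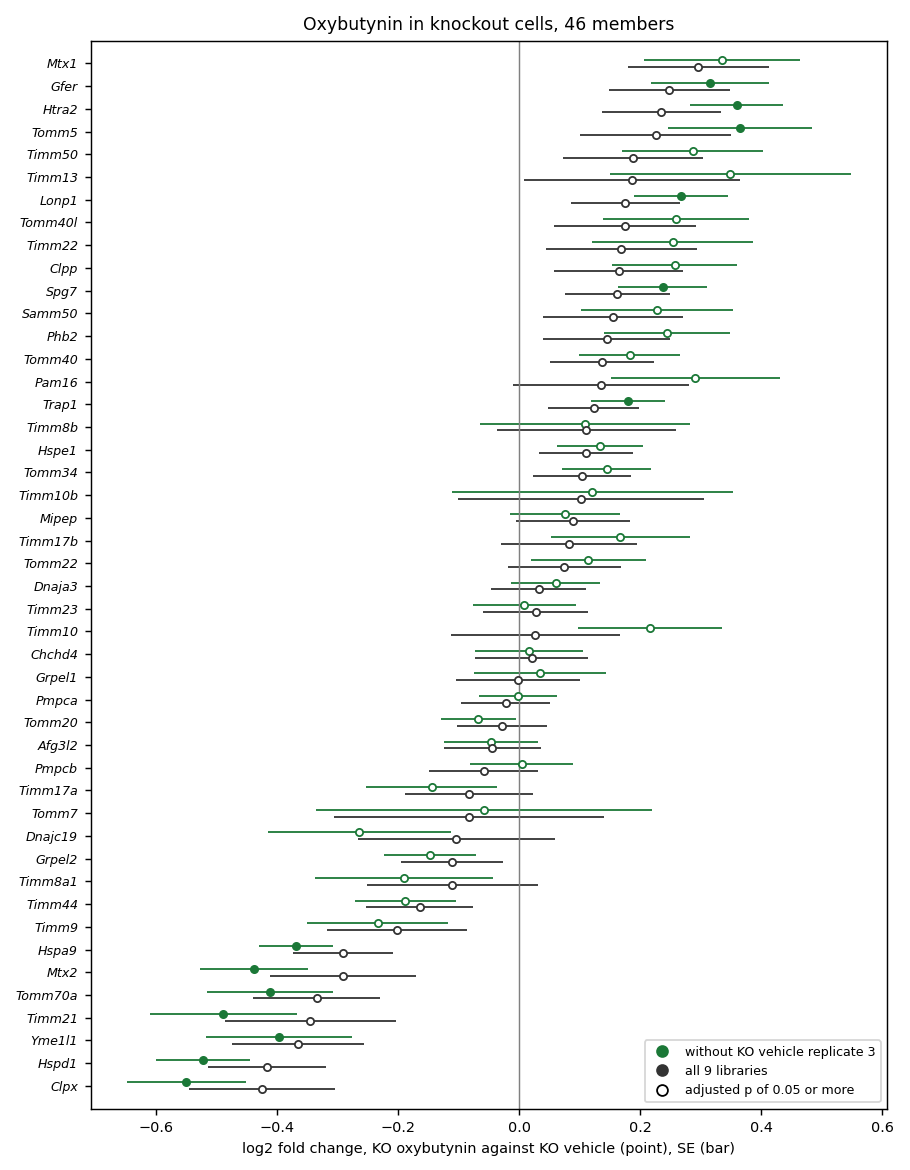
Log2 fold change of the 46 members in knockout oxybutynin against knockout vehicle (x axis, point; bar, SE), ordered by the fit of all 9 libraries (dark), with the fit without knockout vehicle replicate 3 (green). Filled points have an adjusted p under 0.05. No dark point is filled, and 13 green points are, with Clpx, Hspd1 and Timm21 furthest to the left.

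Levels between members can be compared only per length, here as CPM per kilobase of the representative transcript (RPKM). In floxed vehicle the order was led by Hspa9 (155 ± 2.16 RPKM), Phb2 (107 ± 3.05), Hspd1 (102 ± 2.60) and Hspe1 (95.9 ± 1.42). Lonp1 was at 25.9 ± 1.48, and the lowest were Tomm40l (3.36 ± 0.251) and Timm10b (0.795 ± 0.0889). Lonp1 was above Hspd1 in both knockout groups. It reached 94.5 ± 6.62 RPKM in knockout oxybutynin (Hspd1 43.5 ± 2.17) and 83.6 ± 9.53 in knockout vehicle (Hspd1 58.0 ± 9.30). The members together summed to 3223 ± 106 CPM in knockout oxybutynin, 3324 ± 67.9 in knockout vehicle and 2806 ± 33.8 in floxed vehicle, and no knockout library overlapped a floxed one.

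Genes of the same pathway outside the 46 were counted in the same fits of knockout vehicle against floxed vehicle. Of 13 other import and insertion genes 12 were tested, with 5 higher and 3 lower (median 0.15), where 29.9% of all genes were higher and 33.4% lower. Once GC-adjusted 4 were higher and 5 lower, with 28.7% and 29.9% of all genes. Mtx3, a metaxin, fell (-1.09 ± 0.14, adjusted p = 2.37e-06; GC-adjusted -0.21, not called). Timmdc1, a complex I assembly factor, rose (0.57 ± 0.092, adjusted p = 3.91e-05; GC-adjusted 0.32). Of 14 other mitochondrial proteases and peptidases 5 were higher and 1 lower (median 0.08), with 29.9% and 33.4% of all genes. Once GC-adjusted 9 were higher and 2 lower, with 28.7% and 29.9% of all genes. The list was led by Stoml2, a prohibitin relative (0.63 ± 0.12, adjusted p = 1.62e-04; GC-adjusted 0.22), and Immp2l, an inner membrane peptidase subunit (1.04 ± 0.20, adjusted p = 2.69e-04; GC-adjusted 1.33). Afg3l1, an m-AAA subunit, was at 0.46 ± 0.094, adjusted p = 3.98e-04 (GC-adjusted 0.16).

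Of 8 other mitochondrial chaperones 6 were higher and 0 lower in knockout vehicle (median 0.62), with 29.9% and 33.4% of all genes. The disaggregase Clpb was at 0.85 ± 0.087, adjusted p = 1.77e-07 (GC-adjusted 0.66), the iron-sulphur co-chaperone Hscb at 1.13 ± 0.16, adjusted p = 6.52e-06 (GC-adjusted 1.02), and Bcs1l, which inserts the Rieske protein into complex III, at 0.76 ± 0.097, adjusted p = 2.46e-06 (GC-adjusted 0.52). After the adjustment 4 of the 8 were higher and 1 lower, with 28.7% and 29.9% of all genes. Of 6 transcription factors of mitochondrial stress 5 were higher and 0 lower (median 1.258), where 29.9% of all genes were higher and 33.4% lower. Ddit3 was at 2.96 ± 0.12, adjusted p = 5.74e-12, Atf4 at 1.13 ± 0.089, adjusted p = 6.81e-09 and Atf5 at 1.38 ± 0.12, adjusted p = 3.71e-08, and GC-adjusted at 2.54, 0.72 and 0.84. For oxybutynin in knockout cells 0 of the 12 tested import genes, 0 of the 8 chaperones and 0 of the 6 factors were called. At an unadjusted p under 0.05 there were 1, 3 and 4, where 26.0% of all genes had such a p. The share was thus lower for the import genes and higher for the chaperones and factors. Aifm1 was lower (-0.34), and Dnlz, Dnajc30 and Bcs1l were higher (0.33, 0.23 and 0.21). Of the factors Atf4, Ddit3 and Hsf1 were higher (0.23, 0.25 and 0.18) and Cebpg lower (-0.23). None of the other proteases and peptidases was called by edgeR (smallest adjusted p = 0.114, Lactb at -0.59).

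Some members share sequence with other genes, which could split or add reads. Transcripts of at least 95% identity over at least 200 bases and 25% of the length were found for Timm23 (5 copies), Hspd1, Hspe1, Pam16, Dnajc19, Timm8a1, Gfer and Pmpca. The copies of Timm23, Hspd1, Hspe1, Pam16, Dnajc19 and Timm8a1 held at most 16 counts in any library. Gfer shares 573 bases with Dst, an expressed gene. Exons of the same strand overlap Timm10b (Gm45799, 201 bases) and Samm50 (Gm49513, 111), which strand cannot resolve. Exons of the opposite strand overlap Pmpca (Inpp5e, 874 bases), Tomm40l (Nr1i3, 1072), Grpel1 (Tada2b, 411) and Htra2 (Loxl3, 369), and shorter overlaps touch others. The libraries were directional, but how strand was treated in counting is unknown here, so reads of such pairs may not be told apart.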

How the data were processed

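RNA of 9 libraries was sequenced after Trizol extraction with a directional NEBNext kit, per the labels' protocols. The authors deposited raw counts, whole numbers for each gene ID, without normalization. The submitters' processing notes name STAR 2.7.0e, Trim Galore 0.6.0, DESeq2 1.26.0, FastQC and cutadapt, and the builds GRCm38 and mm10. The sources used here do not give the counting step or its strand setting.

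Testing used edgeR 4.0.16 (R 4.3.3). The filter filterByExpr left 15720 genes, which were scaled by TMM and fitted with glmQLFit on all 9 libraries, 1 mean per group, with Benjamini-Hochberg adjustment over all tested genes and calls at 0.05. CPM values use TMM-scaled library sizes. All 55536 IDs matched GENCODE M21 (GRCm38), which gave coordinates, length and GC content. The adjustment removed, per library, a smooth trend of log counts on GC content and length of 1 representative transcript per gene. The edgeR fit without that adjustment was tested on simulated counts, for knockout vehicle against floxed vehicle only. Those counts had a common dispersion for all genes and no GC trend. The adjustment itself and the oxybutynin comparison were not tested on simulated data. Alternatives were DESeq2 1.42.0, limma-voom 3.58.1, RLE scaling, library totals only, no filter, a mean of at least 1 CPM, only the 2 groups compared, the GC and length adjustment, each library left out, an adjusted p under 0.01 and at least 1.5-fold.

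The members, lists and tests were chosen with earlier results of these data known. All 46 members may be named. Full values were given for up to 6 called members with the largest rise and fall per comparison among those without overlap, for partner pairs, and for members whose call differs between comparisons, and up to 3 called genes of each other list. The values of 1 gene that this rule names are not reported here. No column lacked a sample (0 columns).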

Additional observations from a re-analysis of the deposited data

How the results depend on the processing

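Counts of members stayed within 1.5 times of 26 higher and 7 lower in knockout vehicle, and of 31 higher and 8 lower in knockout oxybutynin against floxed vehicle, under the other scalings, filters and tools tried. A change of at least 1.5-fold left 5 higher and 5 lower in knockout vehicle, and 12 higher and 6 lower in knockout oxybutynin. At that cut higher and lower members were thus equal in number in knockout vehicle. The share of all genes at that cut is not given here. The GC and length adjustment without knockout vehicle replicate 3 (an alternative chosen after seeing the data) left 4 lower in knockout vehicle. Leaving out 1 library gave 21 to 31 higher and 5 to 8 lower in knockout vehicle and 26 to 32 and 7 to 8 in knockout oxybutynin. Of 33 members called in knockout vehicle, 23 were called in all 9 such fits, and 31 of 39 in knockout oxybutynin. Of the uncalled members 9 and 2 gained a call in at least 1 such fit. For oxybutynin in knockout cells, where 0 were called, leaving out 1 library gave 0 to 6 higher and 0 to 7 lower, library totals as the only scaling gave 1 lower, no filter 5 lower, DESeq2 5 lower, and the adjustment without knockout vehicle replicate 3 gave 1 lower. The cause was not tested.

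Among members called before or after it, the GC and length adjustment turned the sign, to log2 fold changes in knockout vehicle against floxed vehicle of Tomm40 -0.31, Tomm70a 0.48, Tomm34 -0.12, Mtx1 -0.23, Mtx2 0.50, Timm17a 0.56, Timm21 0.33, Timm44 -0.22, Timm50 -0.14, Spg7 -0.0031, Htra2 -0.0024 and Phb2 -0.063. Of these, Tomm34, Timm50, Spg7, Htra2 and Phb2 were not called after it. In knockout oxybutynin against floxed vehicle the values of turned sign were Tomm40 -0.42, Tomm70a 0.41, Tomm34 -0.17, Mtx1 -0.18, Mtx2 0.41, Timm17a 0.73, Timm21 0.19, Timm50 -0.16, Pam16 -0.19, Hspe1 -0.080, Clpp -0.0084, Afg3l2 -0.20 and Phb2 -0.11. There Mtx1, Timm21, Timm50, Pam16, Hspe1, Clpp and Phb2 were not called after it. The adjustment moved 18 of 30 partner ratio differences by more than 1 SD, and RLE scaling, library totals and leaving out 1 library moved none. No paired analysis was possible because the replicate numbers run on through all groups in the labels and pair no libraries. The scarcest member, Timm10b, had 46 to 102 counts per library, which limits its precision.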

Other observations

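Of 14 cytosolic chaperone genes, some of which hand precursors to the import receptors, 7 were lower and 2 higher in knockout vehicle against floxed vehicle (median -0.19), and 8 and 3 after the GC and length adjustment, by edgeR. Of all genes 33.4% were lower and 29.9% higher, and after the adjustment 29.9% were lower and 28.7% higher. Hsp90aa1, the inducible Hsp90, was at -1.73 ± 0.11, adjusted p = 6.40e-10 (GC-adjusted -1.20), Dnaja1, a J-domain co-chaperone, at -1.52 ± 0.097, adjusted p = 6.57e-10 (GC-adjusted -0.49), and Hsph1, an Hsp70 exchange factor, at -1.03 ± 0.11, adjusted p = 2.30e-07 (GC-adjusted -0.88). For oxybutynin in knockout cells 0 of 14 were called and 7 had an unadjusted p under 0.05, all lower, where 26.0% of all genes had such a p. Without knockout vehicle replicate 3, 7 of the 14 were called lower, with 14.4% of all genes.

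The system that organises the cristae (MICOS) had 2 of 7 genes higher and 2 lower in knockout vehicle, near the 29.9% and 33.4% of all genes. Once GC-adjusted 3 were higher and 0 lower, with 28.7% and 29.9% of all genes. Chchd6 was at 0.87 ± 0.14, adjusted p = 3.63e-05 (GC-adjusted 0.36). Apool was at -0.70 ± 0.11, adjusted p = 3.67e-05 (GC-adjusted 0.26), and Apoo at -0.32 ± 0.11, adjusted p = 0.0156 (GC-adjusted 0.30).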
